A study of Mus musculus with 2 samples.

Results

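Rab GTPases were read in RNA from the newborn mouse hindbrain as the genes whose symbol is Rab followed by a number and at most 1 letter. By this rule 59 of the 43346 mouse genes in the tables were Rab genes, and all 59 are annotated as protein-coding. The 2 libraries were both from the hindbrain of pups of the B6NCrl strain at postnatal day 0, 1 labelled pup 3 (replicate 2) and 1 labelled pup 1 (replicate 1). They form 1 group with no treatment, the sex of the pups is given as not collected, and the labels give both pups 1 donor record. Each library was made from 13 pg of mirVana-extracted RNA above 200 nt, an amount the labels equate with 1 cell, but the RNA came from a whole hindbrain and so from its mixed cells. Fewer cells of a type and less RNA per cell cannot be told apart in such material. With 1 group and 1 library per pup there was no other group to compare and no repeat of a pup. No test was therefore made, and a ratio between the pups compares these libraries only.

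Rab proteins are small GTPases that give each membrane compartment its identity. A guanine nucleotide exchange factor (GEF) loads a Rab with GTP on its membrane, the GTP-bound form recruits effectors such as motors and tethers, and a GTPase-activating protein (GAP) returns it to the GDP-bound form. A GDP dissociation inhibitor (GDI) then extracts it from the membrane, holding the lipid tails that were attached to cysteines at the end of the protein. In neurons Rab3 proteins sit on synaptic vesicles, while Rab5, Rab7 and Rab11 mark early, late and recycling endosomes.

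The libraries held 29866728 expected counts in pup 3 and 35462381 in pup 1. All 5 neuronal markers and all 5 markers of astrocytes and radial glia were detected in both pups, as were 5 of 7 hindbrain markers, with Egr2 and Hoxb2 at 0 in both. All 5 forebrain markers were at 0 counts in both pups. The neuronal markers summed to 4634 TPM in pup 3 and 7032 in pup 1, but they did not all differ in 1 direction. Tubb3 and Stmn2 were lower in pup 3, at 2044 and 1554 TPM against 3905 and 2301 in pup 1. Map2, Elavl3 and Snap25 were higher in pup 3, at 377, 54.8 and 603 TPM against 203, 41.5 and 581 in pup 1. Those of astrocytes and radial glia summed to 4202 TPM in pup 3 and 4460.5 in pup 1. The 5 oligodendrocyte lineage markers summed to 316 TPM in pup 3 and 480.2 in pup 1, and the 5 microglial ones to 123 in pup 3 and 132 in pup 1. Mbp and Cnp were lower in pup 3, Pdgfra and Olig1 were higher, and Olig2 had 0 counts in pup 3 and 2 in pup 1. Of the microglial markers 2 were detected in both pups, 2 in pup 3 only and 1 in pup 1 only. C1qa had 42.7 TPM in pup 3 against 5.54 in pup 1, while C1qb had 54.6 in pup 3 against 106 in pup 1. The 5 erythroid markers summed to 3941 TPM in pup 3 against 1486 TPM in pup 1, and the 5 endothelial and pericyte markers to 172 TPM in pup 3 and 127 in pup 1. The endothelial and pericyte sum rests on Cldn5, at 156 TPM in pup 3 against 85.3 in pup 1. Rgs5, Kdr, Pecam1 and Pdgfrb were all lower in pup 3. In the erythroid set and in the endothelial and pericyte set, 4 of 5 were detected in both pups and 1 in pup 1 only. The part of cell makeup in the differences between the pups was not tested.

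The lipid anchor of a Rab is attached at the last cysteines of its chain, and the coding ends below show the cysteine codons (TGC or TGT) in capitals for Rab genes whose levels are described further on. Each run is the last 45 coding bases, stop codon included, of 1 GENCODE M21 transcript on GRCm38, written 5′ to 3′ on the gene's strand. Rab3a lies at chr8:70758044-70758088 (plus strand), Rab7 at chr6:88000435-88000479 (minus), Rab11b at chr17:33747668-33747712 (minus), Rab1a at chr11:20224801-20224845 (plus), Rab5a at chr17:53506385-53506429 (plus), Rab8a at chr8:72180093-72180137 (plus) and Rab23 at chr1:33739348-33739392 (plus).
Rab3a: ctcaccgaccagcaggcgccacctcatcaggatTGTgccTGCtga
Rab7: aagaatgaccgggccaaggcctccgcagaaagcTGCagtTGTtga
Rab11b: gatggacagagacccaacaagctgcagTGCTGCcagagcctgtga
Rab1a: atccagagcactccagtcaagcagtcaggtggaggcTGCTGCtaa
Rab5a: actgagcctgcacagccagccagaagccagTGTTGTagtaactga
Rab8a: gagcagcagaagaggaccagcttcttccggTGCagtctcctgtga
Rab23: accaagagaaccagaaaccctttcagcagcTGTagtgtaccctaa
Among the 59 genes, 20 end as Rab3a and Rab7 do, with 2 cysteine codons split by 1 other codon just before the stop. In 15, including Rab1a, the last 2 codons before the stop are both for cysteine. A pair of adjacent cysteine codons is followed by 1 more codon in 3 genes, by 2 in 6, as in Rab5a, and by 3 in 6, as in Rab11b. In 8 genes, Rab8a and Rab23 among them, a single cysteine codon is followed by 3 further codons and the stop. The Rab18 transcript read here has 585 coding bases and differs in length from the deposited one, and its end has none of these forms. This holds for that transcript only, and the ends of other Rab18 coding sequences were not tested.

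Of the 59 Rab genes, 40 (67.8%) were detected in both pups, taking an expected count of at least 5 as detected, against 37.8% of the 21461 protein-coding genes. Rab34 (1.69%) was the 1 gene detected in pup 3 only, against 5.45% of protein-coding genes. A further 5 (8.47%) were detected in pup 1 only, against 12.3%, and 13 (22.0%) in neither, against 44.5%. The Rab genes were thus listed in both libraries more often than protein-coding genes at large, a group that includes many genes of other tissues.

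Of the undetected genes, 12 of 13 had 0 counts in both pups: Rab7b, Rab13, Rab17, Rab19, Rab25, Rab26, Rab29, Rab37, Rab38, Rab39, Rab42 and Rab44. Rab20 had 0 counts in pup 3 and 1 in pup 1. A count of 0 allows up to 3 counts, which for a gene of 1000 nt effective length is 0.164 TPM in pup 3 against 0.145 TPM in pup 1, counting error only. Several of these genes are best known outside neurons: Rab17 and Rab25 in epithelia, Rab13 at tight junctions, Rab38 on melanosomes and Rab37 on secretory granules.

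Together the Rab genes summed to 4704 TPM in pup 3 against 4114 TPM in pup 1 (4409 ± 417, SD, n = 2), where TPM is a length-scaled share of transcripts rescaled to 1000000 over nuclear genes. By reads they took 0.592% of nuclear counts in pup 3 (0.589 to 0.594%) against 0.507% in pup 1 (0.505 to 0.510%), with 95% Wilson intervals. The 10 genes with the highest mean level held 79.7% in pup 3 and 71.0% in pup 1 of the summed TPM. The median detected Rab gene stood at 36.1 TPM in pup 3 against 34.6 TPM in pup 1, while the median detected protein-coding gene stood at 33.5 TPM in pup 3 and 24.3 in pup 1.

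**Figure D1:**
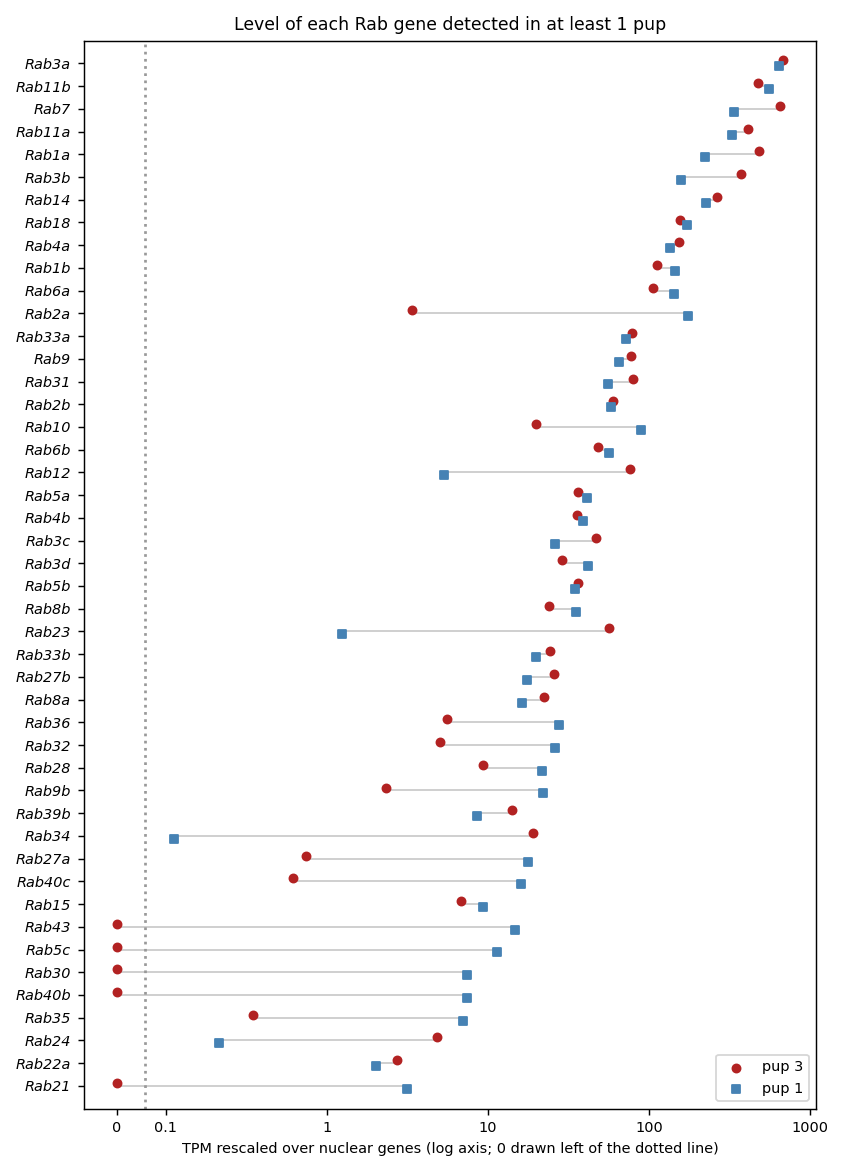
Level of the 46 Rab genes detected in at least 1 pup, in TPM on a log axis, with circles for pup 3 above squares for pup 1 and genes ordered by mean level. Rab3a stands at 677 TPM in pup 3 and 642 in pup 1, Rab7, Rab1a and Rab3b are 1.94-fold to 2.34-fold higher in pup 3, and Rab2a, Rab12, Rab23 and most genes at the foot of the plot are far apart.

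Rab3a, the main Rab of synaptic vesicles, had the highest mean level, 677 TPM in pup 3 against 642 TPM in pup 1. Rab11b, a recycling endosome Rab enriched in brain, followed with 474 TPM in pup 3 against 559 TPM in pup 1. Rab7, which brings late endosomes to lysosomes, reached 649.5 TPM in pup 3 against 335 TPM in pup 1. These 3 genes exceeded all other Rab genes in mean level, and Rab7 stood 1.94-fold higher in pup 3.

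Rab11a, the widely expressed recycling Rab, had 410.5 TPM in pup 3 against 327 TPM in pup 1. Rab1a, which directs traffic out of the endoplasmic reticulum (ER) to the Golgi, had 481 TPM in pup 3 against 222 TPM in pup 1. Rab3b, a second Rab3 of regulated secretion, had 370.2 TPM in pup 3 against 158 TPM in pup 1. Rab1a and Rab3b were the members of the highest 10 that differed most between the pups, 2.17-fold and 2.34-fold higher in pup 3.

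Rab14, which acts between the Golgi and endosomes, had 264 TPM in pup 3 against 227 TPM in pup 1. Rab18, found on the ER and on lipid droplets, had 156 TPM in pup 3 against 172 TPM in pup 1. Rab4a, of the fast recycling route, had 153 TPM in pup 3 against 134 TPM in pup 1. Rab1b, the other ER-to-Golgi Rab of its pair, had 113 TPM in pup 3 against 146 TPM in pup 1. All 4 lay within 1.3-fold between the libraries, so neighbours in this order, such as Rab4a and Rab1b, cannot be ranked from 2 pups that place them differently.

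The pups were set side by side on log2(TPM + 1), a scale that understates the differences of low genes. Over the 46 Rab genes detected in at least 1 library the log2 ratio of pup 3 over pup 1 had a median of -0.14, and over 11905 protein-coding genes one of -0.16. Among the 40 detected in both it was 0.05, with 21 higher and 19 lower in pup 3, and 0.14 over 8102 protein-coding genes. The median size of the log2 difference, sign ignored, was 0.60 for Rab genes and 1.36 for protein-coding genes.

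The spread depended on level. All 11 Rab genes with a mean of at least 100 TPM were detected in both pups (99.9% of protein-coding genes at that level), with a median absolute log2 difference of 0.33 against 0.61. From 10 to 100 TPM 23 of 23 Rab genes were in both, against 80.1% of protein-coding genes, with a median absolute difference of 0.53 against 1.41. Below 10 TPM only 6 of 13 were in both, against 27.3%, and the median absolute difference was 3.07 against 1.62. The median absolute difference of Rab genes was thus below that of protein-coding genes above 10 TPM and above it under 10 TPM, which is a description of these libraries. The range below 10 TPM takes in every gene with a count above 0, also genes under the detection threshold. Levels were not matched within any of the ranges, so no conclusion against protein-coding genes is drawn from them.

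**Figure D2:**
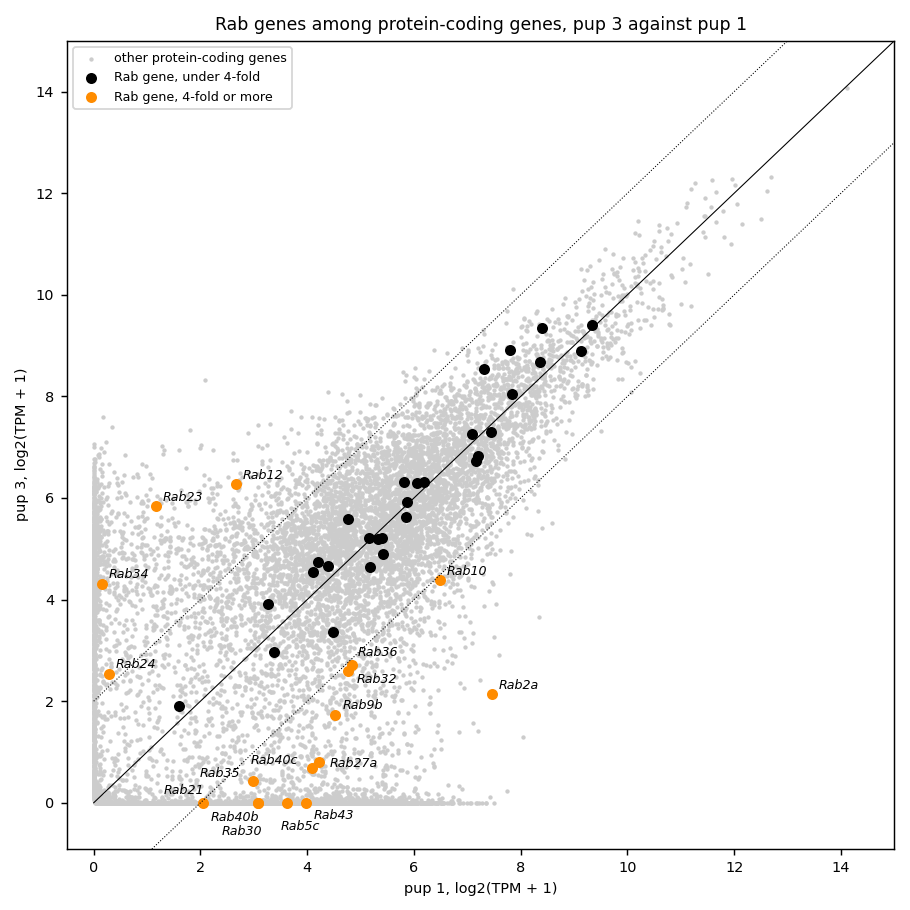
Log2(TPM + 1) in pup 3 (vertical axis) against pup 1 (horizontal axis) for Rab genes over other protein-coding genes detected in at least 1 library, with dotted lines at a 4-fold difference. Rab genes within 4-fold are black and the 17 outside it are orange and named, with 5 of them on the floor of the plot at 0 TPM in pup 3.

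A difference of at least 4-fold on this scale, counted among genes with 50 or more expected counts in 1 library, was seen for 17 of 46 Rab genes (37.0%), against 39.8% of protein-coding genes. Of these, 4 (8.70%) were higher in pup 3, where 16.2% of protein-coding genes were, and 13 (28.3%) were lower in pup 3, against 23.6%. These shares are near those of all protein-coding genes, so the count is no result about the Rab genes. Each of the 17 is given below with its values in both pups.

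By compartment, the Rab genes of the recycling endosome held the largest sum, 1344 TPM in pup 3 against 1302 TPM in pup 1 (1323 ± 29.7, SD, n = 2). Those of the ER and Golgi summed to 1108 TPM in pup 3 against 1121 TPM in pup 1 (1114 ± 8.92). Those of synaptic and regulated secretory vesicles summed to 1150 TPM in pup 3 and 904 in pup 1 (1027 ± 174). As the sets were drawn, the recycling set was the largest in both pups, but this rests on placing Rab14 in it. Rab14, which acts between the Golgi and endosomes, had 264 TPM in pup 3 and 227 in pup 1. That is more than the lead of the recycling set over the next set in each pup. The order of the other 2 differs between the pups, so no order between those is drawn.

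The late endosome and lysosome set summed to 815 TPM in pup 3 against 454 TPM in pup 1 (634 ± 256), with Rab7 making up 79.7% in pup 3 and 73.8% in pup 1 of it. The early endosome set, at 154 TPM in pup 3 and 148 in pup 1, and the set for post-Golgi, plasma membrane and cilium routes, at 132 TPM in pup 3 and 163 in pup 1, were several times lower in both pups. The genes with no settled compartment, Rab40b, Rab40c, Rab42 and Rab44, reached 0.614 TPM in pup 3 against 23.5 TPM in pup 1. A Rab was placed in 1 set only, although many act at more than 1 membrane.

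**Figure D3:**
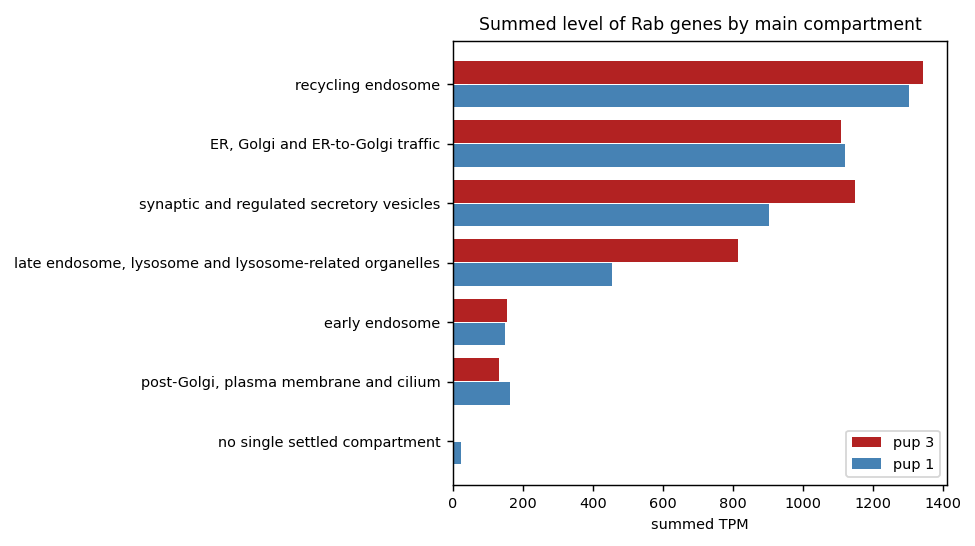
Summed TPM of the Rab genes assigned to each main compartment, with pup 3 above pup 1 in each pair of bars. The recycling, ER and Golgi, and secretory sets each sum to between 904 and 1344 TPM in both pups, and the late endosome set is at 815 TPM in pup 3 against 454 TPM in pup 1.

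Within the ER and Golgi set, Rab1a took 81.0% of the Rab1 TPM in pup 3 and 60.4% in pup 1. The Rab2 pair, which tethers ER-derived and Golgi membranes, was the most unequal between the pups. Rab2a had 3.39 TPM (126 counts) in pup 3 against 174 TPM (7342 counts) in pup 1, 51.3-fold lower in pup 3. Its paralog Rab2b had 59.6 TPM (2587 counts) in pup 3 against 57.8 TPM (1834 counts) in pup 1. In pup 1, however, 40.6% of the Rab2b TPM came from 83.2 counts given to Rab2b-205, a 270-nt transcript annotated for nonsense-mediated decay. Rab2b held 94.6% of the pair's TPM in pup 3 and 24.9% in pup 1, and the change of the leading paralog rests mainly on Rab2a.

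Rab6a, of traffic within and out of the Golgi, had 106 TPM in pup 3 against 142 TPM in pup 1, and Rab6b, its neuron-enriched paralog, had 48.1 TPM in pup 3 and 56.6 in pup 1. Rab6a therefore held 68.7% in pup 3 and 71.6% in pup 1 of the pair. Rab33a and Rab33b, Golgi Rabs of which Rab33b also binds the autophagy protein Atg16l1, had 78.8 and 24.3 TPM in pup 3 and 71.6 and 19.9 TPM in pup 1. Rab33a held 76.4% in pup 3 and 78.3% in pup 1 of its pair by TPM but 50.3% in pup 3 and 55.2% in pup 1 by reads, since Rab33b transcripts are longer. Rab39b, an X-linked neuronal gene, had 14.1 TPM in pup 3 against 8.58 TPM in pup 1, while Rab39 was at 0 in both.

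The other Golgi genes outside 4-fold were Rab34, Rab43, Rab30 and Rab36. Rab34, placed at the Golgi and at the base of the cilium, had 548 counts (18.9 TPM) in pup 3 and 2 counts in pup 1, a ratio of 324 between the shares of nuclear counts (95% counting interval 89.3 to 2683). Rab43, of the Golgi, had 0 counts in pup 3 and 454 (14.8 TPM) in pup 1, at least 128-fold lower in pup 3 when 3 counts are taken for its 0. Rab30, another Golgi Rab, had 0 counts in pup 3 and 245 (7.45 TPM) in pup 1, at least 69.0-fold lower. Rab36, of the Golgi and late endosomes, had 5.56 TPM in pup 3 against 27.5 TPM in pup 1.

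The Rab3 subfamily summed to 1124 TPM in pup 3 against 869 TPM in pup 1 (996 ± 180, SD, n = 2), and all 4 members were detected in both pups. Rab3a held 60.3% of it in pup 3 and 73.9% in pup 1, and Rab3b 33.0% in pup 3 and 18.2% in pup 1. Rab3c, with 47.1 TPM in pup 3 against 26.2 TPM in pup 1, held 4.19% in pup 3 and 3.01% in pup 1. Rab3d, best known from exocrine granules, had 29.0 TPM in pup 3 against 42.0 TPM in pup 1, or 2.58% in pup 3 and 4.83% in pup 1. By reads rather than TPM, Rab3c took 22.4% in pup 3 and 15.8% in pup 1, since its effective length is 8401 nt in both pups and that of Rab3b is 1046 nt in pup 3 and 1223 nt in pup 1.

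The 4 Rab3 genes are alike in coding sequence, so it matters whether reads could be split among them. A 60-base window of their coding sequences, aligned at coding position 211 of Rab3a counted from the first base of the start codon, is shown with the bases that differ from Rab3a in capitals. It covers part of the switch II region, which changes shape with the bound nucleotide. Each window is spliced and its span on GRCm38 crosses an intron, at chr8:70756066-70756488 (plus strand) for Rab3a, chr4:108890518-108923947 (plus) for Rab3b, chr13:110181056-110260496 (minus) for Rab3c and chr9:21914940-21915722 (minus) for Rab3d.
Rab3a: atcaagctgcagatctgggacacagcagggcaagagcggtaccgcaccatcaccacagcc
Rab3b: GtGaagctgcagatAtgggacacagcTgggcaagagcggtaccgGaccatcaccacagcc
Rab3c: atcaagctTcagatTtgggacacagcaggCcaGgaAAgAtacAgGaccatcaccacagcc
Rab3d: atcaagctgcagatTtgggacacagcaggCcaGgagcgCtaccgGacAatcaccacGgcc
Rab3b, Rab3c and Rab3d differ from Rab3a at 5, 9 and 7 of these 60 bases. Over the whole coding sequence the 6 Rab3 pairs were 69.6 to 74.8% identical, and the longest identical run was 33 bases, between Rab3b and Rab3d.

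Some other pairs were more alike, up to 78.5% identical for Rab6a and Rab6b. None of the 27 paralog pairs shared any 100-base stretch of transcript, and the longest identical coding run in any pair was 38 bases, between Rab1a and Rab1b. The deposited posterior SD of the expected count, a measure of how uncertain the assignment of shared reads is, was 0 in both libraries for 34 of the 46 detected Rab genes. It was at most 26.9 reads, for Rab11b, and at most 0.941% of any detected gene's count. The paralog shares thus rest on reads that were assigned to genes with little posterior spread.

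Among other secretory Rabs, Rab27a, which docks lysosome-related and secretory granules, had 0.748 TPM (42 counts) in pup 3 against 17.6 TPM (1053 counts) in pup 1, 23.6-fold lower in pup 3. Rab27b, its paralog in neurons and glands, had 25.6 TPM in pup 3 against 17.4 TPM in pup 1. Rab27b held 97.2% of the pair in pup 3 and 49.6% in pup 1, where the paralogs were near equal. Rab26 and Rab37, linked to synaptic vesicles and secretory granules, were at 0 in both pups.

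Of the early endosome Rabs, Rab5a and Rab5b, which drive fusion of early endosomes, were close to each other in TPM in each pup. Rab5a had 36.1 TPM in pup 3 against 41.1 TPM in pup 1, and Rab5b 36.2 TPM in pup 3 and 34.6 in pup 1. Rab5c, the third of the group, had 0 counts in pup 3 and 428 (11.4 TPM) in pup 1, at least 121-fold lower in pup 3 by read counts alone. Rab5b held 50.1% of the group in pup 3 and 39.7% in pup 1, and Rab5a 49.9% in pup 3 and 47.2% in pup 1, so by TPM the leading paralog differs between the pups. By reads Rab5b led in both, with 57.6% in pup 3 and 48.3% in pup 1.

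Rab31, of traffic between the trans-Golgi and endosomes, had 79.1 TPM in pup 3 against 55.3 TPM in pup 1. It held 96.6% in pup 3 and 96.5% in pup 1 of its pair with Rab22a, the most even split between the pups among pairs with both genes above 0. Rab22a had 2.75 TPM in pup 3 and 2.02 in pup 1. Rab21, which acts in integrin uptake, had 0 counts in pup 3 and 112 (3.14 TPM) in pup 1, at least 31.6-fold lower in pup 3 by read counts alone.

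The Rab11 pair summed to 884 TPM in pup 3 against 885 TPM in pup 1, of which Rab11b held 53.6% in pup 3 and 63.1% in pup 1. Rab25, the epithelial member of the group, was at 0. Rab4a held 81.1% in pup 3 and 77.4% in pup 1 of its pair with Rab4b, which had 35.5 TPM in pup 3 against 39.2 TPM in pup 1. Rab15, an endosomal Rab of neural tissue, had 6.78 TPM in pup 3 against 9.34 TPM in pup 1. Rab35, of fast recycling and neurite growth, had 0.346 TPM (17 counts) in pup 3 against 6.96 TPM (389 counts) in pup 1, 20.1-fold lower in pup 3. Apart from Rab35, recycling Rabs that were detected lay within 1.5-fold between the pups.

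In the late endosome set, Rab9, which returns mannose 6-phosphate receptors to the trans-Golgi, had 77.5 TPM in pup 3 against 65.2 TPM in pup 1. Its paralog Rab9b had 2.32 TPM in pup 3 against 22.1 TPM in pup 1, 9.51-fold lower in pup 3. Rab12, of transport to lysosomes, had 76.0 TPM (2651 counts) in pup 3 against 5.33 TPM (157 counts) in pup 1, 14.3-fold higher in pup 3. Rab32, of melanosomes and mitochondria, had 5.07 TPM in pup 3 against 26.2 TPM in pup 1. Its relatives Rab38 and Rab29 were at 0 in both pups. The set therefore held genes that differed in opposite directions.

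Rab24, an atypical Rab linked to autophagy, had 4.83 TPM (156 counts) in pup 3 against 0.215 TPM (8 counts) in pup 1, 22.5-fold higher in pup 3. Of its 2015 exonic bases, 1258 are shared with Prelid1 on the opposite strand, which had 6664 counts in pup 3 and 5418 in pup 1. No source used here says if the counting was stranded. Without strand, reads in the shared bases may come from either gene, so the level of Rab24 is uncertain. The deposited posterior SD of its count was 0 in both pups.

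Of the post-Golgi genes, Rab8a and Rab8b, which carry vesicles to the plasma membrane and cilium, had both genes detected, with Rab8a at 22.3 TPM in pup 3 against 16.2 TPM in pup 1 and Rab8b at 24.1 TPM in pup 3 and 35.3 in pup 1. Rab8b held 51.9% of the pair by TPM in pup 3 and 68.5% in pup 1, and 67.1% in pup 3 and 80.8% in pup 1 by reads. Rab10, of exocytosis and axon membrane growth, had 19.8 TPM in pup 3 against 88.5 TPM in pup 1, 4.47-fold lower in pup 3. Its opposite-strand neighbour Rab10os, sharing 143 exonic bases, had 659 counts in pup 3 and 4663 in pup 1. Rab28, a Rab of cilia and photoreceptors, had 9.33 TPM in pup 3 against 21.5 TPM in pup 1.

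Rab23, known in mouse as a negative regulator of Sonic hedgehog signalling in the neural tube, had 56.3 TPM (1262 counts) in pup 3 against 1.24 TPM (33 counts) in pup 1, 45.4-fold higher in pup 3. The transcripts behind this level are described with the isoforms. Rab40c, whose protein adds a SOCS box to the Rab fold, had 0.614 TPM in pup 3 against 16.1 TPM in pup 1, 26.2-fold lower in pup 3. Rab40b had 0 counts in pup 3 and 271 (7.42 TPM) in pup 1, at least 76.4-fold lower in pup 3 by read counts alone.

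**Figure D4:**
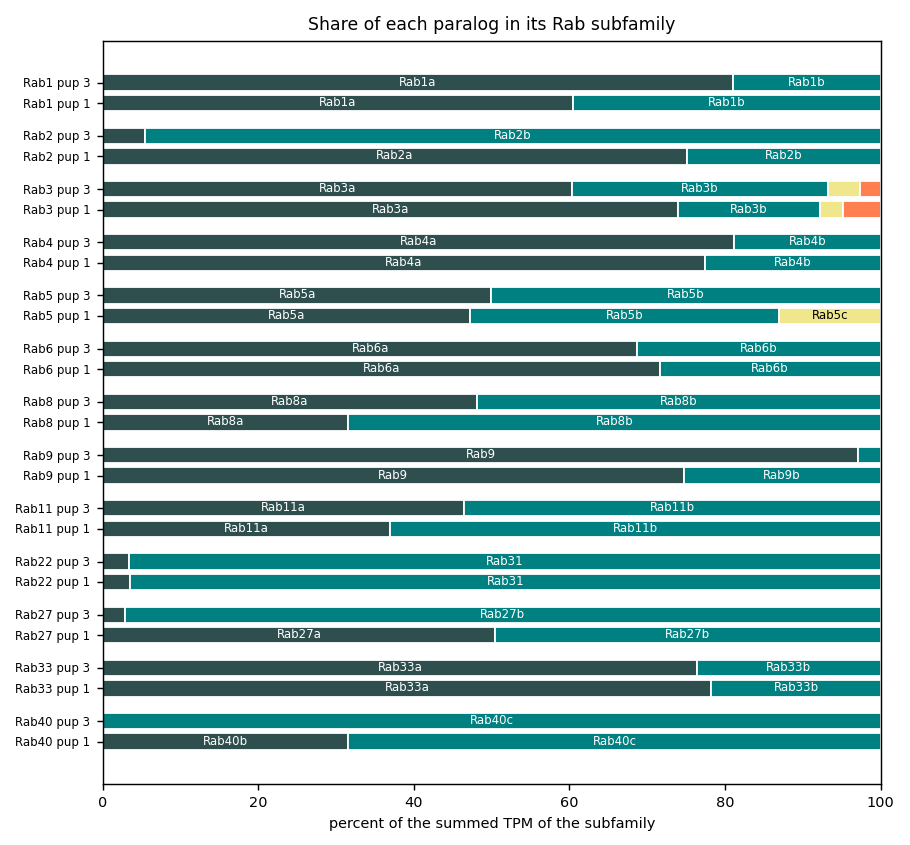
Share of each paralog in the summed TPM of its subfamily, in percent, with the bar of pup 3 above that of pup 1, for the 13 subfamilies with more than 1 member above 0. Rab4, Rab6, Rab22 and Rab33 are split nearly alike in both pups, and Rab2 and Rab27 are split differently (in the Rab3 bars the unnamed ends are Rab3c and then Rab3d).

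Across the 16 subfamilies with more than 1 gene, the same paralog led in both pups in 13. In 3 of those 13 (Rab7, Rab32 and Rab39) the leading gene was also the only one above 0 counts. The exceptions were Rab2, Rab5 and Rab27. By reads it was also 13 of 16, but the exceptions were Rab2, Rab11 and Rab27. Rab11b took 45.6% of the Rab11 reads in pup 3 and 62.0% in pup 1, and Rab11a the rest.

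The transcript tables list 210 transcripts of the Rab genes. For 35 of the 40 genes detected in both pups the same transcript took the largest share of the gene's TPM in both, and for 35 the leading transcript was protein-coding in both. In 29 of the 40 at least 90% of TPM was in protein-coding transcripts in both pups, and in 23 all of it was. Rab3a was led by Rab3a-201, with 70.1% in pup 3 and 73.9% in pup 1, and Rab7 by Rab7-205, with 94.3% in pup 3 and 99.9% in pup 1. Rab6a was led by Rab6a-201, with 93.6% in pup 3 and 99.9% in pup 1, while 2 further annotated coding forms of Rab6a, Rab6a-202 and Rab6a-203, were at 0 in both.

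Rab1a and Rab11b, both among the highest genes, were led by transcripts that lack a stretch of the longest coding sequence. Rab1a-202, with a coding length of 381 bases, took 49.9% of Rab1a TPM in pup 3 and 55.1% in pup 1, and Rab1a-201, with 609 bases, took 49.6% in pup 3 and 44.9% in pup 1. Rab1a-202 lacks coding positions 184 to 411 of Rab1a-201, 228 bases. Rab11b-203, with 582 coding bases, took 66.7% in pup 3 and 65.9% in pup 1, whereas Rab11b-201, with the full 657, took 3.68% in pup 3 and 6.31% in pup 1. Rab11b-203 lacks coding positions 41 to 115 of Rab11b-201, 75 bases. The joined ends in each short form are shown as 20 bases before the joint in lower case and 20 after it in capitals, from transcripts on GRCm38 chromosome 11 (plus strand) for Rab1a and chromosome 17 (minus) for Rab11b.
Rab1a-202: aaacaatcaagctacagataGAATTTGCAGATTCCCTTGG
Rab11b-203: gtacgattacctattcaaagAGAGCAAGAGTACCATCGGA
By reads the order for Rab1a turned, with 11894 counts in pup 3 and 5632 in pup 1 given to Rab1a-201, and 4824 in pup 3 and 2792 in pup 1 given to Rab1a-202. These shares are estimates from reads split among transcripts, and reads across the joints were not counted here.

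Some genes counted as detected had little TPM in coding forms. All Rab23 TPM in pup 3 was in transcripts annotated as retained introns or processed transcripts, the leading one with 36.6%, and in pup 1 5.50% was in a coding one. Rab40c had 0% in coding transcripts in pup 3 and 13.9% in pup 1, led in both by the processed transcript Rab40c-205. Rab22a had 0% in pup 3 and 29.1% in pup 1, led in both by Rab22a-203, a transcript annotated for nonsense-mediated decay. For these 3 genes the gene-level TPM is thus mostly not that of a coding RNA.

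Rab8a had 50.3% of its TPM in coding transcripts in pup 3 and 48.9% in pup 1, but 91.1% in pup 3 and 90.6% in pup 1 of its reads, because the other transcript, a retained-intron fragment of 542 nt, is short. Rab4b was 99.2% coding in pup 3 and 48.0% in pup 1, where the retained-intron form Rab4b-205 took 51.0%. Rab12 had 99.9% in pup 3 and 63.6% in pup 1 in coding transcripts, and Rab2b 100% in pup 3 and 50.4% in pup 1 by TPM, though 92.5% by reads in pup 1. Rab3d was led by Rab3d-201 in pup 3 (82.4%) and by Rab3d-203 in pup 1 (68.1%), both with 660 coding bases. Rab27a was assigned wholly to Rab27a-203 in pup 3 and to Rab27a-201 in pup 1, both with 666 coding bases.

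**Figure D5:**
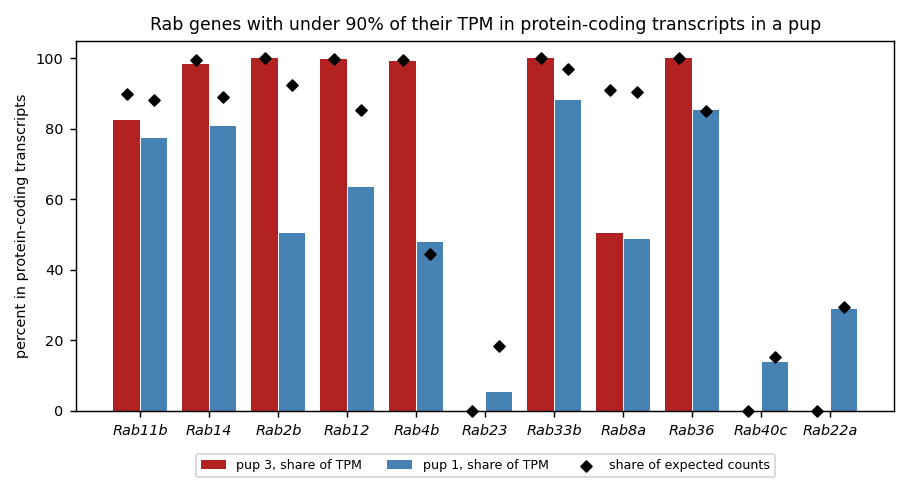
Percent of each gene's TPM in protein-coding transcripts, pup 3 left of pup 1, for the 11 Rab genes detected in both pups with under 90% in at least 1 pup, with diamonds for the share of expected counts. Rab23, Rab40c and Rab22a have 0% in pup 3, and for Rab8a the diamonds stand at 91.1% in pup 3 and 90.6% in pup 1, far above the bars.

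Exons of 20 Rab genes overlap another annotated gene, and in 8 of them the other gene was detected. Besides Rab24 and Rab10, Rab6a shares 708 exonic bases with Mrpl48 (1904 counts in pup 3 and 2236 in pup 1), and Rab11b 329 with Gm17251 (642 counts in pup 3 and 117 in pup 1). Rab2b shares 195 with Tox4 (1983 counts in pup 3 and 3072 in pup 1) and Rab3a 29 with Mpv17l2 (1036 counts in pup 3 and 0 in pup 1). All of these lie on the opposite strand. Rab26 shares 267 bases on its own strand with Traf7, which had 4886 counts in pup 3 and 4159 in pup 1, while Rab26 had none.

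The machinery of the Rab cycle was listed as 92 genes, of which 91 matched the tables. Of these, 60 (65.9%) were detected in both pups, against 37.8% of protein-coding genes, and 8 (8.79%) in neither, against 44.5%. A further 5 (5.49%) were found in pup 3 alone, near the 5.45% of protein-coding genes, and 18 (19.8%) in pup 1 alone, against 12.3%. Gdi2, which encodes the GDI found in most tissues, had 174 TPM in pup 3 and 408 TPM in pup 1, lower in pup 3.

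All 4 genes for attaching the lipid tails were detected in both pups, against 37.8% of protein-coding genes. Rabggta, the alpha subunit of Rab geranylgeranyl transferase, had 71.4 TPM in pup 3 against 16.9 TPM in pup 1, and Rabggtb, the catalytic beta subunit, 6.18 TPM in pup 3 and 55.2 in pup 1. The subunits of 1 enzyme thus differed between the pups in opposite directions. The escort protein genes Chm and Chml had 31.5 and 3.75 TPM in pup 3 and 14.0 and 1.26 TPM in pup 1.

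Among 25 GEF genes, 18 (72%) were detected in both pups, against 37.8% of protein-coding genes, and 4 (16%) in pup 1 only, against 12.3%. The highest were Sbf1, with 119 TPM in pup 3 against 29.8 TPM in pup 1, Gapvd1, a GEF for Rab5, with 81.9 TPM in pup 3 and 44.0 in pup 1, Rabif with 88.9 TPM in pup 3 and 30.7 in pup 1, and Hps4, of the Rab32 and Rab38 GEF, with 78.4 TPM in pup 3 and 15.1 in pup 1. Madd, a GEF of Rab3 proteins, had 1.74 TPM in pup 3 against 27.6 TPM in pup 1. Of the listed GEF genes named after Rab3, Rab3il1 was higher in pup 3, at 36.55 TPM against 22.4 in pup 1. Rab3ip was lower, at 0 TPM in pup 3 against 17.1 in pup 1.

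Among 16 GAP genes, 11 (68.8%) were detected in both pups, against 37.8% of protein-coding genes, and the other 5 (31.2%) in pup 1 only, against 12.3%. Rabgap1l had 52.9 TPM in pup 3 against 24.9 TPM in pup 1, Rabgap1 38.1 TPM in pup 3 and 36.2 in pup 1, and Tbc1d17 36.2 TPM in pup 3 and 36.3 in pup 1. Rab3gap2, the non-catalytic subunit of the Rab3 GAP, had 41.6 TPM in pup 3 against 13.5 TPM in pup 1, and its catalytic partner Rab3gap1 had 185 counts in pup 3 and 1484 in pup 1.

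Among 44 effector genes, 25 (56.8%) were detected in both pups, against 37.8% of protein-coding genes, and 5 (11.4%) in neither, against 44.5%. Another 5 (11.4%) were found in pup 3 alone, against 5.45%, and 9 (20.5%) in pup 1 alone, against 12.3%. Gcc2, a golgin of the trans-Golgi, had 25.0 TPM in pup 3 against 128 TPM in pup 1. Vps41, of the HOPS tether that works with Rab7, had 54.1 TPM in pup 3 and 84.7 in pup 1. Ehbp1, which binds Rab8 and Rab10, had 76.4 TPM in pup 3 and 21.7 in pup 1, and Myo5a, a motor for Rab27a and Rab11 cargo, 52.7 TPM in pup 3 and 32.1 in pup 1. Rims1, the active-zone partner of Rab3a, had 37.9 TPM (1612 counts) in pup 3 against 0.452 TPM (55 counts) in pup 1, although Rab3a itself was 1.05-fold higher in pup 3. Madd, Rab3il1, Rab3ip, Rab3gap1 and Rims1 were chosen after their values were seen.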

How the data were processed

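The 2 libraries of newborn hindbrain RNA, 1 from pup 3 and 1 from pup 1, were read from 1 gene table and 1 transcript table each. Per the deposited notes, the tables rest on transcriptome alignments, the mm10 assembly and annotation M4, and the notes name no counter. The notes likewise leave out the aligner, its version and any use of strand (not given in the sources used here). Per the file headers, the authors deposited an expected count (reads shared among transcripts are split, so it need not be whole), its posterior mean and SD, TPM and FPKM. Per the file headers, the transcript tables also hold the percent of a gene's TPM taken by each transcript. The deposited TPM is scaled over all entries, spike-ins and mitochondrial genes included, and the deposited FPKM per effective length and assigned reads.

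Of 43346 mouse genes, 42462 matched GENCODE M21, annotated on GRCm38 (the mm10 assembly), by identifier without version. Some M4 and M21 transcripts differ in length. Symbols, biotypes, coordinates (1-based) and coding sequences came from it, with the coding sequence taken as the longest complete one among listed protein-coding transcripts with reads. TPM was rescaled to 1000000 over 43309 nuclear genes. Detection meant an expected count of at least 5. The log2 scale used a pseudocount of 1 TPM, and 4-fold differences were counted among genes with 50 or more counts in 1 library. Other folds are ratios of TPM. Against a library at 0, a fold is a bound computed with 3 counts in that library on shares of nuclear counts. It bounds the reads and not the RNA of the pup. Intervals are at 95% and cover counting error only. Reads carry no stated molecular identifiers. The labels give the pups as separate replicates but 1 donor record, and no p-value was computed, because each pup has 1 library and the series 1 group. No DNA sequence of chromosome 18 genes is printed.

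The members and the lists of compartments, paralogs, pathway genes and markers were chosen with earlier results of these data known. Rab41 and Zfyve20 of these lists had no match. The rule for naming took the 10 Rab genes highest in mean TPM, all members of a subfamily of 2 or more, those detected in 1 library or differing 4-fold, and the 4 highest pathway genes of each role. A gene that the rule names is not reported here. Rab genes and pathway genes outside the rule were chosen after their values were seen.

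Alternatives were other detection counts, thinning of pup 1 to the depth of pup 3, a pseudocount of 0.1 or 5, a fold of 2 or 8, minimum counts of 10 and 200 or none, deposited TPM, FPKM, CPM, TPM over protein-coding genes, scaling by edgeR 4.0.16 (TMM) and DESeq2 1.42.0 on rounded expected counts, and each library alone. The detection counts of each library alone and the leading transcript by count were chosen after seeing the data. Tables were made with Python 3.11.15, pandas 2.3.3 and R 4.3.3. The fold count was tested on simulated libraries that held counting error only. Such a test cannot show how often losses or amplification noise at low input give a 4-fold difference.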

Additional observations from a re-analysis of the deposited data

How the results depend on the processing

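Only 2 libraries of 1 group bear on each value, at an input of 13 pg, so a gene at 0 in 1 pup was not detectable in that library, and absence from the tissue is not shown. No paired analysis was possible because the series has 1 group and no test was made.

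Scaling set the size of summed levels. With the deposited TPM the mean summed Rab TPM was 3929, and with TPM rescaled over protein-coding genes 4996, against 4409. The ER and Golgi sum was 993 and 1264, the early endosome sum 134 and 171, and the recycling sum 1179 and 1501 under those settings. With each library alone the Rab sum ranged from 4114 to 4704, the number of Rab genes detected from 41 to 45 and that of pathway genes from 65 to 78. Detection in both pups ranged from 36 to 41 Rab genes over the other detection rules and the thinned library.

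The number of genes differing at least 4-fold was 17, with 4 higher and 13 lower in pup 3. At 8-fold it was 10 (3 higher, 7 lower), and with a pseudocount of 5 TPM it was 4 (3 higher, 1 lower). By construction a larger pseudocount takes out low genes. The median log2 ratio of Rab genes was -0.14 and ranged from -0.26 to 0.05 over its alternatives, turning positive when restricted to genes detected in both pups. Scaling by edgeR and DESeq2 shifted the median of all protein-coding genes by -0.10 and -0.12. By reads in place of TPM, the share of Rab3a in Rab3 was 54.3%, of Rab5a in Rab5 42.3%, of Rab6a in Rab6 60.7%, of Rab8b in Rab8 73.9%, of Rab31 in its pair 93.2% and of Rab33a in its pair 52.7%.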
